A study of Mus musculus with 9 samples.

Results

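The genes described here are 29 mouse genes of cholesterol and fatty acid synthesis, chosen by name and function and found in the count table through their Entrez IDs. They are 29 of the 24594 genes in the table, and all 29 passed the filter on low counts that left 13928 genes for testing. The set holds 6 enzymes of the mevalonate steps, 11 enzymes from squalene to cholesterol, 3 regulators of sterol synthesis with 1 sterol carrier, 3 suppliers of acetyl-CoA and NADPH, and 5 enzymes that build, lengthen or desaturate fatty acids.

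Cells make cholesterol and fatty acids from cytosolic acetyl-CoA, by way of mevalonate, farnesyl diphosphate, squalene and lanosterol on the sterol side and malonyl-CoA and palmitate on the fatty acid side. The SREBP transcription factors, encoded by Srebf1 and Srebf2, switch on most of these genes when sterols in the endoplasmic reticulum are low, and Insig proteins hold them back when sterols are plentiful. Mammary epithelium makes much lipid during lactation, and carcinoma cells often keep fatty acid synthesis active.

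The libraries came from BG2 cells, a line derived from a mammary tumour of a mouse carrying MMTV-NIC, a transgene in which the MMTV promoter drives the Neu oncogene together with Cre recombinase in mammary epithelium. The control was the bulk population with wild-type Sox10 (library names NTC). The other groups were 2 Sox10 knockout lines, each of them 1 clone expanded from a CRISPR-edited population whose guides targeted exon 3, so a difference from the control can belong to the knockout or to the clone and cannot be told apart within 1 clone. All groups share the transgene and the tumour of origin, and each had 3 libraries that the labels call technical replicates, so the p-values here cover the spread between such libraries and not that between cultures or clones.

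Sox10, the targeted gene, had 16660, 21437 and 26038 counts in the control libraries, 0, 6 and 0 in clone 1, and 0, 2 and 2 in clone 2. Each library held 65805296 to 83282841 counts, and in all 3 groups replicate 1 differed most from the other libraries of its group. The labels call the cells mammary epithelial. Of 12 epithelial markers, 10 fell in both clones, as did 29.4% of all tested genes. The summed level of the 12 was 10663 to 12629 CPM (counts relative to the TMM-scaled library size) in the control libraries, 2253 to 2468 CPM in clone 1 and 2928 to 3253 CPM in clone 2. Erbb2 rose from 553 CPM to 1034 CPM and 1500 CPM, the highest level of the 12 in each clone. The Neu of the transgene is a form of Erbb2, and whether its reads were counted for Erbb2 was not tested. Gata3 stood at 88.9 CPM, 86.2 CPM and 85.2 CPM. Among the defining markers Cldn3 had 0 counts in clone 1 and Epcam had 0 counts in clone 2. Of 9 adipocyte markers, a cell type rich in these enzymes, 4 had 0 counts in the control and 5 in each clone, Cidec, Retn and Cd36 in every group, and their summed level was 17.8 to 22.0 CPM, 10.7 to 12.1 CPM and 13.1 to 15.0 CPM. The 2 adipocyte markers that passed the filter on low counts moved in opposite directions: Lipe, hormone-sensitive lipase, fell from 19.7 CPM to 7.58 CPM and 5.07 CPM, and Fabp4, a fatty acid binding protein, rose from 0.603 CPM to 3.88 CPM and 8.63 CPM. In 9 fibroblast markers the control libraries summed to 31.0 to 36.8 CPM, those of clone 1 to 240 to 248 CPM and those of clone 2 to 160 to 179 CPM, and 3, 2 and 3 of them had 0 counts, Lum and Thy1 in every group. In the control libraries the 8 immune markers summed to 7.50 to 12.7 CPM, against 9.72 to 11.4 CPM for clone 1 and 43.6 to 46.1 CPM for clone 2. In clone 2 Cd68, a macrophage marker, stood at 38.6 CPM (control 10.1 CPM) and Lyz2, lysozyme, at 6.36 CPM (control 0.0277 CPM). Csf1r, the third of the 3 immune markers that passed the filter, fell from 0.442 CPM to 0.221 CPM and 0.165 CPM. Of the 8, 1 had 0 counts in the control, 2 in clone 1 and 3 in clone 2. These were Cd3e in every group, Ptprc in both clones and Adgre1 in clone 2. The 6 endothelial markers summed to 0 to 0.108 CPM, 15.9 to 18.1 CPM and 0.816 to 1.09 CPM, with Kdr, a VEGF receptor, at 16.2 CPM in clone 1. The 6 Schwann and glial markers summed to 189.9 to 219.9 CPM, 61.6 to 67.9 CPM and 73.9 to 76.6 CPM, and Mbp, myelin basic protein, stood at 115 CPM, 27.9 CPM and 37.8 CPM. The part of these marker changes in the results below was not tested. In bulk RNA, a lower share of cells with a transcript and less of it per cell cannot be told apart.

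The sequences just before the transcription starts of 5 members are shown because these genes lie on different steps and moved in different directions. Hmgcs1, Insig1 and Cyp51 fell in both clones, and Ebp and Sc5d rose in both. Each line gives the 180 bases before the start in RefSeq's GRCm38.p6 annotation, 5′ to 3′ on the gene's own strand. Capitals mark exact matches, on either strand, to 4 motifs: the sterol regulatory element TCACNCCAC bound by SREBPs, the CCAAT box CCAAT bound by NF-Y, the GC box GGGCGG bound by Sp1, and the E-box CACGTG. The windows are chr13:119690171-119690350 (plus strand) for Hmgcs1, chr5:28071232-28071411 (plus) for Insig1, chr5:4104698-4104877 (minus) for Cyp51, chrX:8193513-8193692 (minus) for Ebp and chr9:42264301-42264480 (minus) for Sc5d.
Hmgcs1: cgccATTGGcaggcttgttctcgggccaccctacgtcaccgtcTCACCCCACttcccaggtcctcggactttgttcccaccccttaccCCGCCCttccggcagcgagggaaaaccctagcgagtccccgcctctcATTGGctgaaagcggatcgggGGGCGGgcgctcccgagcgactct
Insig1: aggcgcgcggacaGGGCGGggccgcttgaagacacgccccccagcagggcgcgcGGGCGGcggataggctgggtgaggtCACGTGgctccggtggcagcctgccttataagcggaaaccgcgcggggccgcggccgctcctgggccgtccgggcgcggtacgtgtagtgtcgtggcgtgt
Cyp51: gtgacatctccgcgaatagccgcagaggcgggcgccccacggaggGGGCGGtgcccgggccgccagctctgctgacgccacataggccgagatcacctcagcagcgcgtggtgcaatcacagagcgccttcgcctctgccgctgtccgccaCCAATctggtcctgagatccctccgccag
Ebp: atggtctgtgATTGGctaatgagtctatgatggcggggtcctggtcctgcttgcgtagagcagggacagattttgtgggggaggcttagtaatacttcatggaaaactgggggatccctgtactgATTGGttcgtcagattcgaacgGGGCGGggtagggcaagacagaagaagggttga
Sc5d: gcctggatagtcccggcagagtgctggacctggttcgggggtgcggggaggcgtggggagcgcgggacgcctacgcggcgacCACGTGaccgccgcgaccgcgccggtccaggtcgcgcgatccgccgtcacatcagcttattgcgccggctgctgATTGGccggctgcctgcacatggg
In these windows the matches do not overlap one another. Hmgcs1 held the sterol regulatory element TCACCCCAC at 137 to 129 bases before the start, 2 CCAAT boxes at 176 to 172 and 45 to 41 bases, and 2 GC boxes at 92 to 87 and 24 to 19 bases. Ebp held 2 CCAAT boxes and 1 GC box, and Sc5d 1 CCAAT box and 1 E-box. Insig1 held 2 GC boxes and 1 E-box, and Cyp51 1 CCAAT box and 1 GC box. These matches describe letters, not binding.

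Of the 29 members, 23 had an entry in the promoter table, with 29 promoters in all. Fdps, Fdft1, Sqle, Stard4, Scd1 and Scd2 had none. In the 250 bases before the start, a CCAAT box stood in 21 of the 29 promoters (72.4%), and in 33.8% of all 32851 promoters of the table. A GC box stood likewise in 21 of 29 (72.4%), and in 32.7% of all promoters. The E-box stood in 4 of 29 (13.8%) against 6.02%, and the sterol regulatory element letters in 1 of 29 (3.45%) against 1.05%. Promoters of 1 gene can overlap, so these shares are descriptions.

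In each knockout clone most of the members stood lower than in the control, and a few, among them late sterol enzymes, stood higher in both clones. In clone 1, 27 of 29 members differed from the control (edgeR, adjusted p under 0.05), 19 lower and 8 higher, where 76.5% of all tested genes differed, 38.6% lower and 37.9% higher. In clone 2, 27 of 29 differed, 21 lower and 6 higher, where 74.4% of all genes differed, 37.1% lower and 37.3% higher. The median log2 fold change of the 29 members was -0.64 in clone 1 and -0.48 in clone 2, beside 0.0025 and -0.0027 over all tested genes. A fall of at least 2-fold was found for 7 members in clone 1 and 8 in clone 2, against 16.3% and 15.4% of all genes. A rise of at least 2-fold was found for 3 members in clone 1 and 1 in clone 2, against 16.3% and 15.1%.

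Both comparisons use the same 3 control libraries, so a chance deviation of the control enters both. With that shared, 15 members were lower in both clones (29.4% of all genes were), 4 were higher in both (28.7%), and 6 were called in opposite directions (4.79%). The count of 6 was 3 without control replicate 2 and 4 or 5 without any other single library. In clone 2 the edgeR adjusted p was 0.0268 for Srebf2, 0.037 for Acss2 and 0.0475 for Msmo1. The 4 that rose in both were Ebp, Sc5d, Dhcr7 and Scd1. The 6 with opposite directions were Msmo1, Srebf1, Srebf2, Acss2, Me1 and Elovl6. The control and clone libraries did not overlap for 29 members in clone 1 (77.9% of all genes) and for 26 in clone 2 (76.0%).

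**Figure D1:**
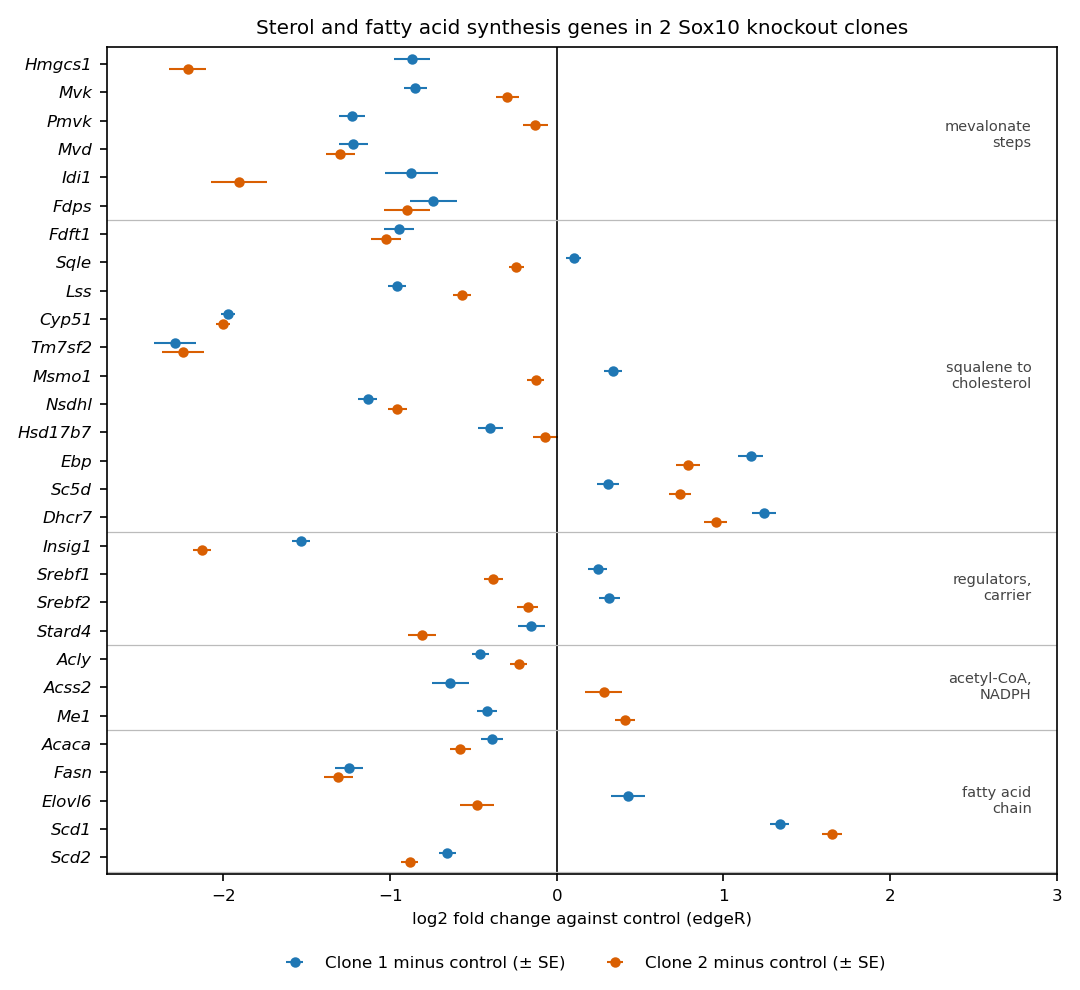
Log2 fold change against control (x axis) of each of the 29 genes (y axis, by step of the pathway) in clone 1 (blue) and clone 2 (orange), with approximate standard errors as bars. All 6 mevalonate genes lie left of 0 in both clones, and Ebp, Sc5d, Dhcr7 and Scd1 lie right of 0 in both.

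**Figure D2:**
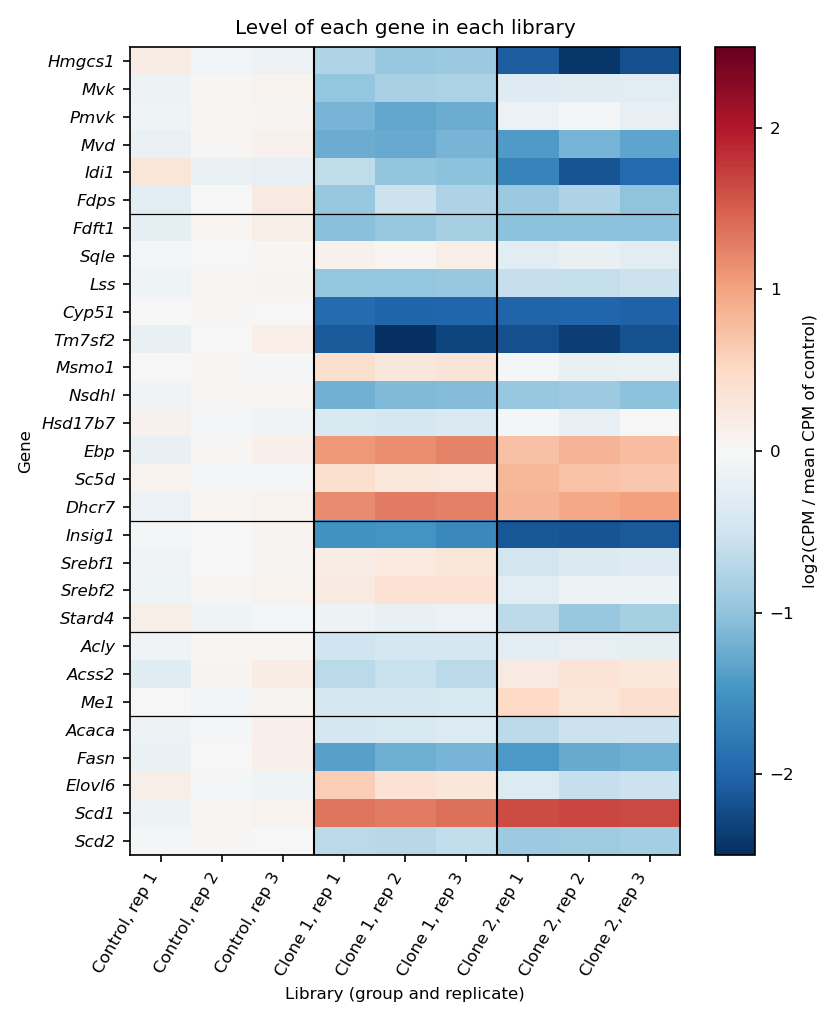
Each cell shows the log2 ratio of 1 library's CPM to the mean CPM of the control, for 29 genes (rows, by step) in 9 libraries (columns; rep is the replicate number). Libraries of 1 group resemble each other, and the 2 clones differ from each other in rows such as Hmgcs1, Idi1, Me1 and Elovl6.

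Levels can be compared between genes only per length, so counts were also divided by the length of each gene's merged exons (RPKM, that is CPM per kilobase of exon). In the control the highest level among the members was that of Scd2, at 531 ± 14.6 RPKM, followed by Fasn at 119 ± 11.7, Acly at 85.5 ± 4.41 and Cyp51 at 77.4 ± 1.22 RPKM (SD, n = 3). The next were Insig1 at 62.5 ± 2.66 and Ebp at 61.1 ± 6.42 RPKM, neighbours closer to each other than their spread. The lowest were Tm7sf2 at 4.37 ± 0.532, Fdps at 3.00 ± 0.503 and Acss2 at 1.74 ± 0.290 RPKM. With the length of the principal transcript, Scd2, Fasn, Acly and Cyp51 kept ranks 1 to 4 and Acss2 rank 29, while Msmo1 moved from rank 20 to 12. In clone 2 Hmgcs1, at 25.2 RPKM in the control, stood at 5.42 RPKM, and Ebp at 105 RPKM.

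In the mevalonate steps all 6 enzymes fell in clone 1 and 5 of 6 fell in clone 2, where 38.6% and 37.1% of all tested genes fell. Their median log2 fold change was -0.87 in clone 1 and -1.10 in clone 2. Hmgcs1 (Entrez ID 208715; chromosome 13, 119690351 to 119708260, plus strand on GRCm38) encodes the cytosolic HMG-CoA synthase that opens the route. Its level was 132, 111 and 104 CPM in the control libraries, 68.7, 60.3 and 61.1 CPM in those of clone 1 and 27.9, 21.4 and 25.3 CPM in those of clone 2. The 3 groups did not overlap: every clone 2 library lay below every clone 1 library, and these below every control library. Hmgcs1 fell 1.82-fold in clone 1 (log2 -0.87 ± 0.11, approximate standard error; edgeR adjusted p = 1.72e-05) and 4.64-fold in clone 2 (log2 -2.22 ± 0.11, adjusted p = 7.26e-09). The difference between the clones was itself past the threshold (log2 -1.35 ± 0.11, adjusted p = 1.49e-06). An antisense transcript overlaps Hmgcs1, and 13.6% of the 50-base stretches of its main transcript also occur in that gene.

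Idi1, the isomerase that makes dimethylallyl diphosphate, had the same order of groups. It was measured at 90.3, 65.2 and 63.2 CPM in the control libraries, 46.9, 36.9 and 35.7 CPM in those of clone 1 and 23.0, 16.3 and 18.9 CPM in those of clone 2. The groups did not overlap, and replicate 1 was the highest library of each group. Idi1 fell by 0.87 ± 0.16 on the log2 scale in clone 1 and by 1.91 ± 0.17 in clone 2 (edgeR adjusted p = 0.000416 and 8.88e-07). Idi1 shares 30.5% of its 50-base stretches with other genes, mainly processed pseudogenes. Hmgcs1 and Idi1 both lie on chromosome 13, where the median over 550 tested genes was 0.17 in clone 1 and -0.48 in clone 2. With these medians subtracted, Hmgcs1 stood at -1.03 and -1.73 and Idi1 at -1.04 and -1.42.

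The 2 kinases parted the clones in the opposite way. Pmvk, phosphomevalonate kinase (chromosome 3, 89454541 to 89469014, plus strand), was measured at 25.6, 28.6 and 28.9 CPM in the control libraries, 12.4, 11.3 and 11.7 CPM in those of clone 1 and 25.0, 27.0 and 24.0 CPM in those of clone 2. The clone 1 libraries lay below all others, while those of clone 2 overlapped the control. Pmvk fell 2.35-fold in clone 1 (log2 -1.23 ± 0.08, edgeR adjusted p = 4.89e-08) and differed by -0.13 ± 0.07 in clone 2 (adjusted p = 0.141). That value for clone 2 passed the threshold without control replicate 1 (-0.21, adjusted p = 0.0289) or without clone 2 replicate 2 (-0.21, adjusted p = 0.0452). Mvk, mevalonate kinase, fell from 64.5 ± 5.01 CPM to 35.8 ± 2.42 CPM (clone 1) and 52.5 ± 1.27 CPM (clone 2; SD, n = 3; log2 -0.85 and -0.30; edgeR adjusted p = 5.84e-07 and 0.00243). Both kinases were higher in clone 2 than in clone 1, Mvk by 0.55 ± 0.07 and Pmvk by 1.10 ± 0.08 on the log2 scale (edgeR adjusted p = 5.14e-05 and 4.81e-07).

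Mvd, the decarboxylase that yields isopentenyl diphosphate, fell in both clones. Its level was 33.2, 38.0 and 40.0 CPM in the control libraries, 15.6, 15.5 and 16.6 CPM in those of clone 1 and 13.9, 16.5 and 14.9 CPM in those of clone 2. The libraries of the 2 clones overlapped each other and lay below all control libraries, with a log2 fold change of -1.22 ± 0.09 for clone 1 (adjusted p = 1.73e-07) and of -1.30 ± 0.09 for clone 2 (1.03e-07) in edgeR. The difference between the clones was -0.08 ± 0.09 (adjusted p = 0.472). Fdps, farnesyl diphosphate synthase, fell from 12.6 ± 2.12 CPM to 7.55 ± 1.06 CPM and 6.78 ± 0.540 CPM. Fdps shares 86.4% of its 50-base stretches with other genes, including processed pseudogenes and a gene that overlaps it on the same strand, so its counts are uncertain.

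The 11 enzymes from squalene to cholesterol did not move as one. In clone 1, 6 fell, 4 rose and 1 did not pass the test, and in clone 2, 7 fell, 3 rose and 1 did not pass. Of all tested genes, 38.6% fell and 37.9% rose in clone 1, and 37.1% fell and 37.3% rose in clone 2. Cyp51 (Entrez ID 13121; chromosome 5, 4080674 to 4104697, minus strand), the P450 enzyme that demethylates lanosterol, had the smallest adjusted p of the members. Its level was 340.1, 348 and 338 CPM in the control libraries, 89.6, 84.8 and 87.1 CPM in those of clone 1 and 85.2, 86.4 and 84.5 CPM in those of clone 2. The 6 clone libraries lay within 84.5 to 89.6 CPM, below every control library. Cyp51 fell 3.92-fold in clone 1 and 4.01-fold in clone 2, with a log2 fold change of -1.97 ± 0.04 for clone 1 (adjusted p = 6.15e-12) and of -2.00 ± 0.04 for clone 2 (5.47e-12) in edgeR. Between the clones it differed by -0.03 ± 0.04 (adjusted p = 0.555).

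Tm7sf2, a sterol reductase that acts next, had the most negative log2 fold change of the members in clone 1. It was measured at 16.9, 19.2 and 21.6 CPM in the control libraries, 4.47, 3.42 and 3.93 CPM in those of clone 1 and 4.19, 3.76 and 4.23 CPM in those of clone 2. All clone libraries lay below all control libraries, and the clones overlapped each other. It had a log2 fold change of -2.29 ± 0.13 for clone 1 (adjusted p = 1.61e-08) and of -2.24 ± 0.13 for clone 2 (1.88e-08) in edgeR. Tm7sf2 shares 532 exon bases on the same strand with Vps51, which fell from 61.7 CPM to 31.8 CPM and 35.3 CPM, and how reads of those bases were assigned was not given in the sources used here. Its chromosome 19 had medians of -0.45 and -0.46, and with these subtracted Tm7sf2 stood at -1.84 and -1.79.

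Fdft1, Lss and Nsdhl also fell in both clones. Fdft1, squalene synthase, stood at 97.9 ± 12.6 CPM, 50.8 ± 3.80 CPM and 48.1 ± 0.136 CPM in the control, clone 1 and clone 2, with a log2 fold change of -0.95 ± 0.09 for clone 1 (adjusted p = 1.64e-06) and of -1.03 ± 0.09 for clone 2 (8.44e-07) in edgeR. Its exons overlap Ctsb on the opposite strand over 774 bases, and Ctsb, a lysosomal protease, rose from 272 CPM to 1171 CPM and 1063 CPM. The libraries were stranded by the labels, but the strand setting of the counting was not given in the sources used here, so reads of these bases may be counted for either gene. Lss, which closes the ring system of lanosterol, stood at 85.7 ± 5.06 CPM, 44.0 ± 0.567 CPM and 57.9 ± 0.834 CPM, with a log2 fold change of -0.96 ± 0.05 for clone 1 (adjusted p = 1.78e-08) and of -0.57 ± 0.05 for clone 2 (1.77e-06) in edgeR. Lss was lower in clone 1 than in clone 2, and the 3 groups did not overlap. Nsdhl, a dehydrogenase in the removal of methyl groups, stood at 109 ± 5.31 CPM, 49.7 ± 2.01 CPM and 56.1 ± 2.06 CPM, with a log2 fold change of -1.13 ± 0.06 for clone 1 (adjusted p = 6.57e-09) and of -0.96 ± 0.06 for clone 2 (2.88e-08) in edgeR.

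The other 3 enzymes of the middle steps stayed closer to the control. Sqle, the epoxidase of squalene, was measured at 179, 185 and 192 CPM in the control libraries, 199.8, 193 and 204 CPM in those of clone 1 and 154, 162 and 154 CPM in those of clone 2. Its clone 2 libraries lay below and its clone 1 libraries slightly above those of the control. Sqle fell in clone 2 (log2 -0.24 ± 0.05, edgeR adjusted p = 0.000603) and had 0.10 ± 0.05 in clone 1 (adjusted p = 0.0665, and 0.0225 with a replicate block). Msmo1, a methyl sterol oxidase, rose from 101 ± 3.20 CPM to 128 ± 4.73 CPM in clone 1 (log2 0.34 ± 0.05, edgeR adjusted p = 0.000114). Its clone 2 value of -0.13 ± 0.05 passed narrowly (adjusted p = 0.0475), and did not pass without control replicate 2 (0.110), without clone 1 replicate 1, 2 or 3 (0.0506, 0.0649 and 0.0691) or without clone 2 replicate 2 or 3 (0.0692 and 0.147). With the chromosome 8 medians of 0.35 and 0.14 subtracted, Msmo1 stood at -0.016 in clone 1 and -0.27 in clone 2. Hsd17b7, a keto-sterol reductase, fell in clone 1 (log2 -0.40 ± 0.08, edgeR adjusted p = 0.000531) and had -0.07 ± 0.08 in clone 2 (adjusted p = 0.417).

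The last 3 enzymes of the set in pathway order, Ebp, Sc5d and Dhcr7, rose in both clones, as did 28.7% of all tested genes. They were grouped after their values were seen, with medians of 1.16 in clone 1 and 0.79 in clone 2. The other 14 sterol enzymes, which are what that grouping left, had medians of -0.91 and -0.93. Of these, 12 fell in each clone, where 38.6% of all tested genes fell in clone 1 and 37.1% in clone 2. Ebp (Entrez ID 13595; chromosome X, 8185329 to 8193512, minus strand), the sterol isomerase, was measured at 125, 145 and 154 CPM in the control libraries, 300.1, 317 and 332 CPM in those of clone 1 and 235, 254 and 241 CPM in those of clone 2. The lowest clone library, at 235 CPM, lay above the highest control library, at 154 CPM. Ebp rose 2.24-fold and 1.72-fold, with a log2 fold change of 1.16 ± 0.07 for clone 1 (adjusted p = 5.39e-08) and of 0.79 ± 0.07 for clone 2 (1.67e-06) in edgeR.

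Dhcr7 (Entrez ID 13360; chromosome 7, 143823167 to 143848410, plus strand), the reductase that turns dehydrocholesterol into cholesterol, was measured at 158, 182 and 184 CPM in the control libraries, 393, 427 and 419 CPM in those of clone 1 and 315, 343 and 357 CPM in those of clone 2. The 3 groups did not overlap, and clone 1 was the highest. Dhcr7 rose 2.37-fold and 1.94-fold, with a log2 fold change of 1.24 ± 0.07 for clone 1 (adjusted p = 1.82e-08) and of 0.96 ± 0.07 for clone 2 (1.85e-07) in edgeR. Genes of its chromosome 7 had medians of -0.43 and -0.42, in the other direction. Sc5d, the sterol desaturase between Ebp and Dhcr7, was measured at 64.0, 58.7 and 58.4 CPM in the control libraries, 79.9, 72.6 and 71.2 CPM in those of clone 1 and 108, 98.6 and 95.7 CPM in those of clone 2. Here clone 2 was the highest, and the groups did not overlap. Sc5d had a log2 fold change of 0.31 ± 0.07 for clone 1 (adjusted p = 0.00134) and of 0.74 ± 0.07 for clone 2 (1.16e-06) in edgeR, and with the medians of chromosome 9 subtracted it stood at 0.22 and 0.31.

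**Figure D3:**
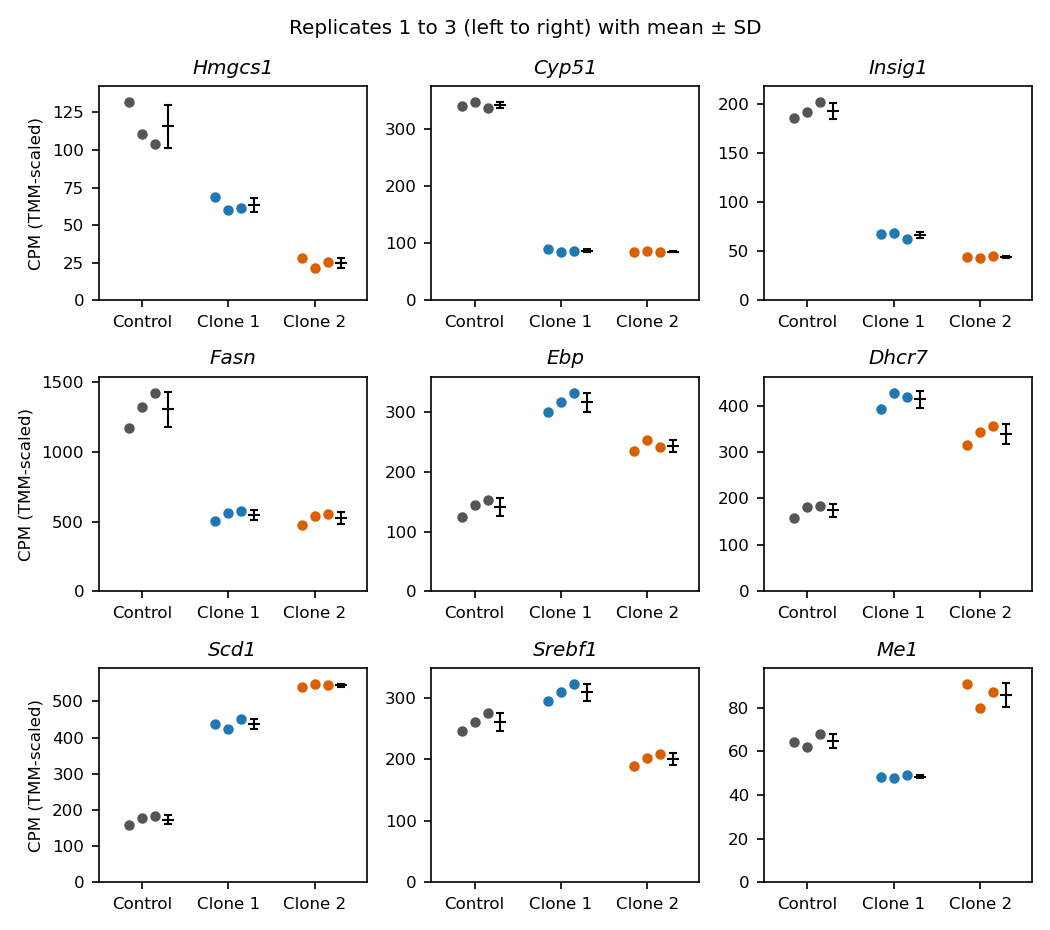
CPM (y axis) of 9 members in each library (points; control grey, clone 1 blue, clone 2 orange) with the mean and SD of each group (n = 3). Hmgcs1, Cyp51, Insig1 and Fasn are lower in both clones, Ebp, Dhcr7 and Scd1 are higher in both, and Srebf1 and Me1 lie above the control in 1 clone and below it in the other.

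Of the regulators, Insig1 fell strongly in both clones while the SREBP genes moved less. Insig1 (Entrez ID 231070; chromosome 5, 28071412 to 28078662, plus strand) encodes the protein that retains SREBPs in the endoplasmic reticulum, and it is itself a well-known SREBP target. Its level was 186, 192 and 202 CPM in the control libraries, 68.0, 69.1 and 62.9 CPM in those of clone 1 and 44.4, 43.2 and 45.1 CPM in those of clone 2. The 3 groups did not overlap, with clone 2 the lowest. Insig1 fell 2.90-fold in clone 1 and 4.37-fold in clone 2, with a log2 fold change of -1.54 ± 0.05 for clone 1 (adjusted p = 3.02e-10) and of -2.13 ± 0.05 for clone 2 (2.5e-11) in edgeR. Its chromosome 5, which also holds Cyp51 and Mvk, had medians of 0.0093 and 0.0025.

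Srebf2, the SREBP gene tied most to sterol synthesis, was measured at 362, 398 and 416 CPM in the control libraries, 459.7, 501 and 502 CPM in those of clone 1 and 326, 357 and 357 CPM in those of clone 2. Clone 1 lay above the control and clone 2 below it, each without overlap. Srebf2 rose in clone 1 (log2 0.32 ± 0.06, edgeR adjusted p = 0.000803) and fell in clone 2 (log2 -0.18 ± 0.06, adjusted p = 0.0268). The fall did not pass without control replicate 2 (0.0773), control replicate 3 (0.104) or clone 2 replicate 1 (0.107). With the medians of chromosome 15 subtracted, Srebf2 stood at 0.028 in clone 1 and -0.43 in clone 2. Srebf1, the SREBP gene tied most to fatty acid synthesis, was measured at 246, 261 and 275 CPM in the control libraries, 295, 309.8 and 323 CPM in those of clone 1 and 189, 202 and 209 CPM in those of clone 2. It had the same order of groups, with a log2 fold change of 0.25 ± 0.06 for clone 1 (adjusted p = 0.00246) and of -0.38 ± 0.06 for clone 2 (0.000108) in edgeR. Gene counts do not separate the promoters of Srebf1, and the transcript level does not show how much SREBP protein is cleaved.

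Stard4, a carrier of sterols between membranes, fell in clone 2 from 63.9 ± 5.72 CPM to 36.5 ± 3.62 CPM (log2 -0.81 ± 0.08, edgeR adjusted p = 3.31e-06). In clone 1 it stood at 57.5 ± 1.41 CPM (log2 -0.15 ± 0.08, adjusted p = 0.108). That value passed the threshold with a replicate block (adjusted p = 0.00773) and without control replicate 2 (-0.21, adjusted p = 0.0473).

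The suppliers of acetyl-CoA and NADPH all fell in clone 1, and in clone 2 only Acly of the 3 fell. Of all tested genes, 38.6% fell in clone 1 and 37.1% in clone 2. Acly, ATP citrate lyase, which makes cytosolic acetyl-CoA from citrate, was measured at 425, 468 and 461 CPM in the control libraries, 318, 332 and 337 CPM in those of clone 1 and 378, 394 and 384 CPM in those of clone 2. The 3 groups did not overlap, with clone 1 the lowest, and Acly had a log2 fold change of -0.46 ± 0.05 for clone 1 (adjusted p = 5.99e-06) and of -0.23 ± 0.05 for clone 2 (0.00146) in edgeR. Me1, the cytosolic malic enzyme that makes NADPH, was measured at 64.2, 61.7 and 67.9 CPM in the control libraries, 48.2, 47.8 and 49.0 CPM in those of clone 1 and 90.8, 79.8 and 86.9 CPM in those of clone 2. Clone 1 lay below the control and clone 2 above it, without overlap. Me1 had a log2 fold change of -0.42 ± 0.06 for clone 1 (adjusted p = 5.71e-05) and of 0.41 ± 0.06 for clone 2 (6.82e-05) in edgeR and differed between the clones by 0.83 ± 0.06 (adjusted p = 6.16e-07). Its chromosome 9 had medians of 0.09 and 0.43, and with these subtracted Me1 stood at -0.50 and -0.019. Me1 also shares 33.4% of its 50-base stretches with other genes, mainly processed pseudogenes.

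Acss2, which makes acetyl-CoA from acetate, was measured at 14.4, 18.5 and 20.1 CPM in the control libraries, 11.0, 11.9 and 11.1 CPM in those of clone 1 and 20.7, 22.5 and 21.2 CPM in those of clone 2. Clone 1 lay below the control, and clone 2 lay just above it. Acss2 fell in clone 1 (log2 -0.64 ± 0.11, edgeR adjusted p = 0.000288), and was higher in clone 2 than in clone 1 by 0.92 ± 0.11 (adjusted p = 3.51e-05). Its value of 0.28 ± 0.11 in clone 2 passed narrowly (adjusted p = 0.037). It did not pass without control replicate 1 (0.13, adjusted p = 0.168) or 2 (adjusted p = 0.0564), or without clone 2 replicate 2 (0.146) or 3 (0.0685). It moved to 0.26 with the median-ratio scaling of DESeq2's size factors (adjusted p = 0.0536).

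In fatty acid synthesis the first enzymes fell in both clones. Fasn (Entrez ID 14104; chromosome 11, 120805958 to 120825166, minus strand), fatty acid synthase, was measured at 1170.3, 1324 and 1425 CPM in the control libraries, 508, 561 and 581 CPM in those of clone 1 and 480.0, 542 and 558 CPM in those of clone 2. The clones overlapped each other and lay below every control library. Fasn fell 2.38-fold and 2.48-fold, with a log2 fold change of -1.25 ± 0.08 for clone 1 (adjusted p = 9.9e-08) and of -1.31 ± 0.08 for clone 2 (6.72e-08) in edgeR, and differed between the clones by -0.06 ± 0.08 (adjusted p = 0.554). Acaca, acetyl-CoA carboxylase, which makes malonyl-CoA, stood at 285 ± 25.5 CPM, 218 ± 6.27 CPM and 191 ± 9.12 CPM, with a log2 fold change of -0.39 ± 0.07 for clone 1 (adjusted p = 0.000211) and of -0.58 ± 0.07 for clone 2 (8.55e-06) in edgeR. A processed pseudogene holds 52.6% of the 50-base stretches of Acaca, so its counts are uncertain. Elovl6, the elongase of palmitate, was measured at 59.5, 51.7 and 49.5 CPM in the control libraries, 82.5, 68.8 and 65.1 CPM in those of clone 1 and 42.4, 36.1 and 36.9 CPM in those of clone 2. Clone 1 lay above the control and clone 2 below it, without overlap. Elovl6 had a log2 fold change of 0.43 ± 0.10 for clone 1 (adjusted p = 0.0024) and of -0.48 ± 0.10 for clone 2 (0.00126) in edgeR. On chromosome 3, with medians of 0.51 and 0.41, subtraction left -0.083 in clone 1 and -0.89 in clone 2.

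The 2 stearoyl-CoA desaturase genes among the members moved in opposite directions in both clones. Both lie on chromosome 19, and their enzymes insert the first double bond into saturated fatty acids. Scd1 (Entrez ID 20249; 44394450 to 44407709, minus strand) was measured at 158, 178 and 183 CPM in the control libraries, 437, 425 and 451 CPM in those of clone 1 and 539.6, 548 and 545 CPM in those of clone 2. The 3 groups did not overlap, and clone 2 was the highest. Scd1 rose 2.53-fold and 3.14-fold, with a log2 fold change of 1.34 ± 0.06 for clone 1 (adjusted p = 1.73e-09) and of 1.65 ± 0.06 for clone 2 (3.06e-10) in edgeR. Scd2 (Entrez ID 20250; 44293676 to 44306864, plus strand) was measured at 2821, 2981 and 2905 CPM in the control libraries, 1821, 1801 and 1899.5 CPM in those of clone 1 and 1539, 1564 and 1619.6 CPM in those of clone 2. It lay below the control in every clone library, with a log2 fold change of -0.66 ± 0.05 for clone 1 (adjusted p = 3.58e-07) and of -0.88 ± 0.05 for clone 2 (2.86e-08) in edgeR.

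Per exon length, Scd1 made up 6.24 ± 0.342% of the sum of both genes in the control, 21.0 ± 0.147% in clone 1 and 27.9 ± 0.478% in clone 2 (SD, n = 3). Scd2 remained the larger part in every library, and the summed level of both genes averaged 3075.6, 2277.9 and 2118.4 CPM. The genes share 4.66% and 4.01% of their 50-base stretches with other genes, mainly with each other or with Scd3. Both lie on a chromosome with medians of -0.45 and -0.46, so after subtraction Scd1 stood at 1.78 and 2.11 and Scd2 at -0.21 and -0.42.

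**Figure D4:**
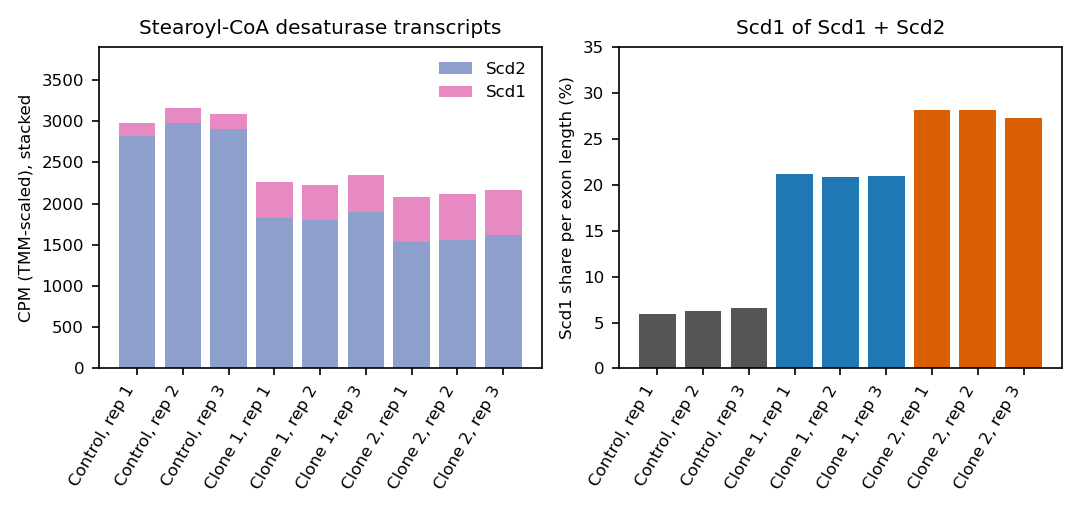
Left, stacked CPM of Scd2 and Scd1 in each library; right, Scd1 as a percentage of both genes per exon length. The share lies between 5.90 and 6.58% in the control libraries, near 21.0% in clone 1 and near 27.9% in clone 2.

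The clones also differed from each other in most members. Of the 29, 23 passed the test of clone 2 minus clone 1, 10 higher and 13 lower in clone 2, where 57.6% of all genes passed, 30.1% higher and 27.5% lower. The libraries of the 2 clones did not overlap for 23 members (64.9% of all genes). The median difference of the members was -0.08. Higher in clone 2 were the 2 kinases Mvk and Pmvk, the suppliers Acly, Acss2 and Me1, and Lss, Nsdhl, Hsd17b7, Sc5d and Scd1. Lower in clone 2 were Hmgcs1 and Idi1, all 4 regulator and carrier genes, and Sqle, Msmo1, Ebp, Dhcr7, Acaca, Elovl6 and Scd2. Nsdhl, at 0.18 ± 0.06 (edgeR adjusted p = 0.0195), did not pass without clone 1 replicate 1 (0.0782) or clone 2 replicate 2 (0.117). Acaca, at -0.19 ± 0.07 (adjusted p = 0.0273), did not pass without clone 1 replicate 2 or 3 (0.0596 and 0.0887) or clone 2 replicate 1 (0.0956). The members that did not pass were Mvd, Fdps, Fdft1, Cyp51, Tm7sf2 and Fasn, all of which fell in both clones.

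The typical fold change differed between chromosomes, and members are given here relative to their own. On 7 of 20 chromosomes the median of the tested genes lay at least 0.3 from 0 on the log2 scale in both clones in the same direction. After subtracting the median of each gene's chromosome, a value without a test, 25 of the 27 members called in clone 1 kept their sign, as did 26 of 27 in clone 2 and 22 of 23 between the clones. The signs that turned among called members were those of Msmo1 (-0.016) and Elovl6 (-0.083) in clone 1, Me1 in clone 2 (-0.019) and Hsd17b7 between the clones (-0.0020). Sqle in clone 1 and Mvd between the clones, which were not called, also turned. Whether a change in copy number underlies the chromosome medians was not tested.

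**Figure D5:**
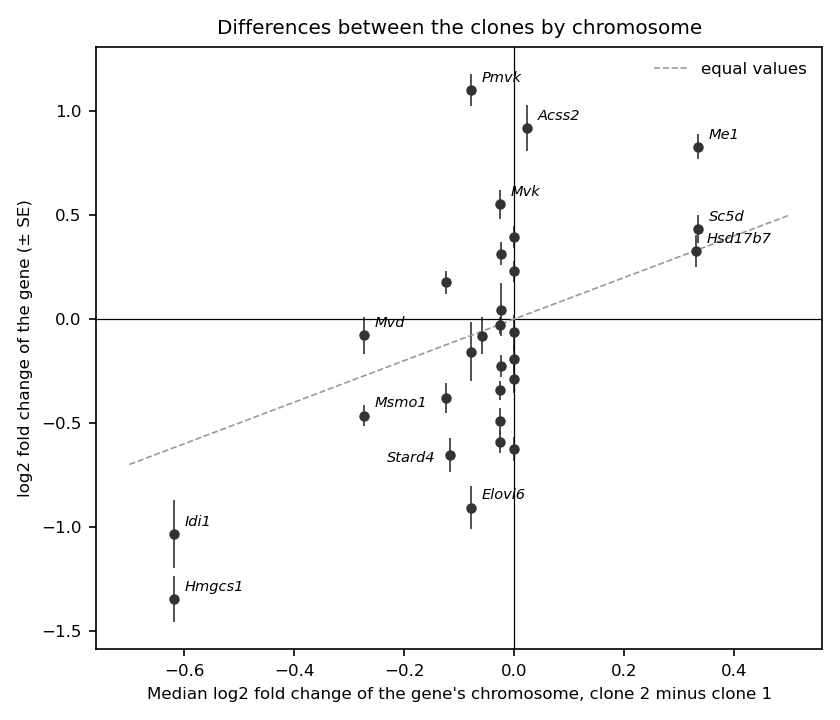
Difference between the clones (log2, clone 2 minus clone 1, with approximate standard error) of each member on the y axis against the median of all tested genes of its chromosome on the x axis; the dashed line marks equal values. Hmgcs1 and Idi1 lie at a chromosome median of -0.62, and Pmvk and Acss2 differ between the clones on chromosomes whose medians are near 0.

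Sequence shared with other genes touches 6 members over 10% of their 50-base stretches: Fdps, Acaca, Me1, Fdft1, Idi1 and Hmgcs1. In the other 23 members, 13 were lower and 8 higher in clone 1, 16 lower and 5 higher in clone 2, and 10 lower and 4 higher in both. Over all tested genes, 38.6% were lower and 37.9% higher in clone 1, 37.1% and 37.3% in clone 2, and 29.4% and 28.7% in both. The 23 include Tm7sf2, whose principal transcript shares no such stretch although 532 of its exon bases overlap Vps51.

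Around these members, other genes of the same pathways were read from lists chosen by function. Of all tested genes, 28.7% rose in both clones, 29.4% fell in both and 4.79% had opposite directions, and the lists' counts are to be read against these shares. Among 11 genes of SREBP processing, 6 rose in both clones, 1 fell in both and 3 had opposite directions, with medians of 0.25 in clone 1 and 0.29 in clone 2. Rnf139, a ubiquitin ligase of the endoplasmic reticulum, rose from 13.5 ± 2.44 CPM to 31.4 ± 1.01 CPM and 29.3 ± 2.18 CPM (log2 1.22 and 1.12). Erlin1, an endoplasmic reticulum membrane protein, rose by 0.87 and 0.60, and Mbtps2, the site-2 protease that releases SREBPs, rose by 0.68 and 0.64 on the log2 scale.

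Among 13 other sterol enzymes and partners, 4 rose in both clones, 4 fell in both and 1 had opposite directions, with medians of 0.047 and -0.080; the counts each way were near the shares of 28.7% and 29.4% over all tested genes. Acat2, the thiolase that makes acetoacetyl-CoA for Hmgcs1, fell from 121 ± 11.4 CPM to 31.2 ± 1.01 CPM and 54.5 ± 3.78 CPM (log2 -1.96 and -1.15). Erg28, a scaffold of the demethylation enzymes, fell by 1.20 and 1.22, and Pgrmc1, a partner of P450 enzymes, fell by 1.63 and 1.37 on the log2 scale.

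Of 26 other genes of fatty acid synthesis, elongation and desaturation, 20 passed the filter, of which 8 fell in both clones, 5 rose in both and 1 had opposite directions. The medians of the 20 were -0.24 and -0.23. Fads2, the desaturase that opens polyunsaturated fatty acid synthesis, fell from 389.6 ± 29.2 CPM to 0.0734 CPM (clone 1) and 0.0217 CPM (clone 2). Fads1, its partner desaturase on the same chromosome as Scd1, fell from 128 ± 9.44 CPM to 0.460 ± 0.199 CPM (clone 1) and 35.6 ± 2.12 CPM (clone 2), a difference between the clones of 6.27 ± 0.18 on the log2 scale (edgeR adjusted p = 4.16e-10). Elovl7, a fatty acid elongase, fell from 43.7 ± 1.32 CPM to 4.73 ± 0.624 CPM and 5.15 ± 0.502 CPM.

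Of 10 other suppliers of acetyl-CoA and NADPH, 6 fell in both clones and 1 rose in both, with medians of -0.67 and -1.04. Acss1, the mitochondrial acetyl-CoA synthetase, fell from 6.15 ± 0.733 CPM to 0 counts in both clones, a level at least 437-fold lower (clone 1) or at least 489-fold lower (clone 2) when set against a floor of 3 counts over the group. Aacs, acetoacetyl-CoA synthetase, fell from 272 ± 17.2 CPM to 93.7 ± 1.38 CPM and 87.0 ± 3.80 CPM. Me3, a mitochondrial malic enzyme, fell from 8.70 ± 1.74 CPM to 1.54 ± 0.193 CPM and 3.21 ± 0.305 CPM.

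Of 7 genes of the LXR receptors, sensors of oxysterols, and their targets, 6 passed the filter, and 2 rose and 2 fell in both clones, with medians of -0.13 and -0.14. Abca1, which exports cholesterol, rose from 2.39 ± 0.390 CPM to 86.8 ± 3.82 CPM and 79.9 ± 3.64 CPM. Nr1h3, which encodes LXR alpha, rose from 1.99 ± 0.0856 CPM to 18.6 ± 1.09 CPM and 22.4 ± 0.939 CPM. Abcg4, a sterol transporter, fell in clone 1 (log2 -2.17, edgeR adjusted p = 0.00131) from a level of only 0.343 CPM in the control, and had -0.50 in clone 2 (adjusted p = 0.265). Of 13 genes of sterol storage, oxidation, uptake and lysosomal export, 9 passed the filter, and 4 rose and 3 fell in both clones, with medians of 0.11 and 0.23. Npc1, which moves cholesterol out of lysosomes, rose from 41.0 ± 2.74 CPM to 101 ± 5.36 CPM and 110.2 ± 8.14 CPM, while its soluble partner Npc2 fell from 232 ± 23.2 CPM to 116 ± 7.07 CPM and 112 ± 1.87 CPM. Stard5, a sterol carrier, rose from 21.9 ± 1.54 CPM to 42.2 ± 1.15 CPM and 53.4 ± 1.17 CPM.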

How the data were processed

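The deposited file holds raw read counts per gene by Entrez ID in 1 column per library, whole numbers with no normalization. The submitters' processing notes name fastp, Subread and DESeq2 with the builds mm10 and GRCm38; their versions, the annotation and the strand and multi-mapping settings were not given in the sources used here. RNA was polyA-enriched and stranded, per the labels' protocols.

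Symbols and coordinates came from the RefSeq GRCm38.p6 gene table, which gave 24570 of 24594 IDs a symbol, and exon lengths from GENCODE's GRCm38 annotation. Counts were fitted in R 4.3.3 with edgeR 4.0.16: filterByExpr with a minimum count of 10, TMM scaling, quasi-likelihood tests over all 9 libraries with 1 factor of 3 groups, and Benjamini-Hochberg adjustment over 13928 genes at 0.05. The scripts were tested on simulated data. Standard errors are the absolute log2 fold change over the root of F. Levels are TMM-scaled CPM. The common biological coefficient of variation was 0.0878.

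Libraries of 1 group differed by more than counting noise, so none was counted as a duplicate. Deviations of same-numbered libraries of different groups correlated at 0.352 to 0.858, and those of replicates 1 at 0.848 to 0.858. Between replicates 2 and 3 of different groups the correlations were 0.290 to 0.729, so the data set replicate 1 apart but do not show that numbers 2 and 3 pair the libraries. The labels only number technical replicates.

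The 29 genes and the other lists were chosen with earlier results of these data known. From each other pathway list, the 3 tested genes with the largest absolute mean of both log2 fold changes are named. Ctsb and Vps51 are named for their overlap, and Cldn3, Epcam, Cidec, Retn, Cd36, Lum, Thy1, Ptprc, Adgre1 and Cd3e as markers at 0. Erbb2, Gata3, Lipe, Fabp4, Cd68, Lyz2, Csf1r, Kdr and Mbp were chosen from the marker lists after their values were seen. Alternatives were other scalings and filters, DESeq2 1.42.0, a replicate block, 2-group fits, glmTreat and leaving out libraries. Some genes of the pathway are not reported here.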

Additional observations from a re-analysis of the deposited data

Results flagged for a closer look

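Each of these results was set aside because the 2 knockout clones differed from each other in edgeR's test of clone 2 minus clone 1 (adjusted p under 0.05, the rule that 57.6% of all tested genes met). On the log2 scale the members higher in clone 2 differed by 1.10 for Pmvk, 0.92 for Acss2, 0.83 for Me1, 0.55 for Mvk, 0.43 for Sc5d, 0.39 for Lss, 0.33 for Hsd17b7, 0.32 for Scd1, 0.23 for Acly and 0.18 for Nsdhl. Among the members lower in clone 2, the regulators and the carrier had -0.66 for Stard4, -0.63 for Srebf1, -0.59 for Insig1 and -0.49 for Srebf2. The sterol enzymes lower in clone 2 had -1.35 for Hmgcs1, -1.03 for Idi1, -0.46 for Msmo1, -0.38 for Ebp, -0.34 for Sqle and -0.29 for Dhcr7. The fatty acid enzymes had -0.91 for Elovl6, -0.23 for Scd2 and -0.19 for Acaca. Each knockout is 1 clone, so these are differences between 2 cell lines with the same targeted gene.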

How the results depend on the processing

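All 29 members kept their direction and side of the threshold in the 3 contrasts under DESeq2. At a required fold change above 2 (glmTreat at a log2 fold change of 1), 3 members were higher and 7 lower in clone 1, 1 higher and 7 lower in clone 2, 1 higher and 5 lower in both, 0 opposite, and 0 higher and 1 lower in clone 2 than in clone 1. Of all tested genes, the same test called 12.6% higher and 13.1% lower in clone 1, 12.2% higher and 12.2% lower in clone 2, 8.84% higher and 9.54% lower in both, 0.445% opposite, and 4.67% higher and 3.84% lower in clone 2 than in clone 1. Leaving out 1 library, or replicate 1 of every group, gave 8 to 8 higher and 19 to 20 lower in clone 1, 5 to 6 higher and 19 to 22 lower in clone 2, 4 to 4 higher and 15 to 16 lower in both, and 3 to 5 opposite. It gave 9 to 10 higher and 12 to 14 lower in clone 2 than in clone 1. Without control replicate 2 the opposite count was 3, against 6. With a replicate block, which groups the libraries by replicate number, Sqle (0.10, edgeR adjusted p = 0.0225) and Stard4 (-0.15, adjusted p = 0.00773) passed in clone 1 and no other member call changed. The block gave 7 members in opposite directions. Calls of Msmo1 and Acss2 in clone 2 were lost in fits of only the 2 groups compared (adjusted p = 0.0757 and 0.0542), of Msmo1 with total-count scaling (0.0548) or no filter (0.0637), and of Acss2 with a stricter filter (0.0578). Without replicate 1 of every group, Pmvk in clone 2 (-0.18) and Fdft1 between the clones (-0.13) passed and Acss2 in clone 2 (0.17) did not. Subtracting chromosome medians, added after the data were seen as was the fit without replicate 1, turned the sign of Msmo1 (-0.016) and Elovl6 (-0.083) in clone 1, Me1 (-0.019) in clone 2 and Hsd17b7 (-0.0020) between the clones among called members. Of the 87 values, 46 others moved by at least the approximate standard error of their fold change. Among these were 2 uncalled values that changed sign, Sqle in clone 1 (0.10 to -0.19) and Mvd between the clones (-0.08 to 0.19). At 65805296 to 83282841 counts per library, counting error was small for these genes; the number of clones, 2, limits what the groups stand for.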

Other observations

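Cell cycle genes, which vary with how fast cells divide, were read beside the lipid genes. Of 20, 4 rose in both clones and 6 fell in both, where 28.7% of all tested genes rose in both and 29.4% fell in both. The summed level of the 20 was 5250.5 to 5419 CPM in the control libraries, 4707 to 4874 CPM in clone 1 and 4573 to 4762 CPM in clone 2.

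Fads3, the third gene of the desaturase cluster that holds Fads1 and Fads2, fell from 375 ± 17.2 CPM to 125 ± 4.46 CPM and 61.7 ± 3.23 CPM. Idh1, a cytosolic source of NADPH, stood at 77.5 ± 0.144 CPM in the control and 76.6 ± 2.71 CPM in clone 1 and fell to 26.9 ± 0.644 CPM in clone 2 (log2 -1.52 ± 0.05, edgeR adjusted p = 1.66e-10). Hacd1, a dehydratase of fatty acid elongation, rose from 2.34 ± 0.148 CPM to 9.67 ± 0.542 CPM and 13.3 ± 0.821 CPM, and Elovl5 from 113 ± 2.18 CPM to 214 ± 1.43 CPM and 217 ± 2.27 CPM. These 4 genes were chosen after their values were seen.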
